A study of Trametes pubescens and Hermanssonia centrifuga with 16 samples.

Results

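The comparison is that of Phlebia centrifuga grown on Norway spruce sticks with the same fungus grown on wheat straw pieces, both at 15 °C. Its 4 libraries, 2 per substrate, were chosen by their sample titles out of the 16 libraries of the series, which also covers a second fungus and growth at 25 °C. The strain was FBCC195, listed under the organism name Hermanssonia centrifuga, and all 4 cultures were solid-state cultures of 21 days on 2 g of dry plant matter at 60% moisture, on water agar. The inoculum was homogenised mycelium from liquid precultures kept at 15 °C for this species. The titles and treatment labels give 15 °C for these cultures, while the growth protocol names 25 °C for the solid cultures, so the temperature rests on the titles. The other 4 libraries of P. centrifuga, grown at 25 °C, entered the statistical fit to estimate the spread, and their levels are not described here. Nothing in the labels tells whether both libraries of a substrate were grown in cultures of their own, and the p-values cover the spread between these libraries alone, which may be technical. Each library was made from a mycelium sample of 1 strain.

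Phlebia centrifuga is a white-rot basidiomycete of boreal forests that decays fallen spruce logs. White-rot fungi secrete oxidoreductases that attack lignin and hydrolases that attack cellulose and hemicellulose, and they take up the sugars released. Spruce is a softwood, with a lignin built mainly of guaiacyl units and a hemicellulose rich in galactoglucomannan, whereas wheat straw is a grass tissue rich in arabinoxylan with ferulate links to lignin. A change of substrate is therefore known to alter the set of secreted enzymes in such fungi. The deposited files name each gene model by a JGI identifier, a scaffold and a model number. They do not pair these with gene names, so no function is given for any model below. The files give no coordinates, so model numbers are taken here as the order along the scaffold.

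The 4 libraries held between 9691925 and 11507628 raw counts, and between 11944 and 11992 of the 13785 gene models had at least 1 count in a library. In all, 1687 models had no count in any of the 4. After removal of models with too few counts, 11658 were tested, and the 2127 others held at most 0.011% of the counts of a library. Levels are given as CPM, with each library brought to the same scaled total. CPM is not corrected for gene length, so a high value can reflect a long transcript as well as an abundant one. In the straw libraries 1 count was worth 0.0873 and 0.0993 CPM, and in the spruce libraries 0.0978 and 0.114 CPM. The 10 models with the most counts took 5.89% and 6.14% of the counts on straw and 8.40% and 7.44% on spruce.

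The libraries of a group were not equally alike. Between spruce library 1 and spruce library 2, the log2 difference in CPM had an SD of 0.522 across genes and a median size of 0.27. Between the straw libraries the SD was 0.326 and the median size 0.14. The difference of the spruce mean from the straw mean had an SD of 0.630 and a median size of 0.25. These are means of 2 libraries, which vary less than single libraries, so the measures are not alike. Small differences between the means were about as common as those between the single spruce libraries. Larger differences were more common between the means. A difference of at least 1 log2 unit was found in 8.43% of models between substrates, 5.99% between the spruce libraries and 1.74% between the straw libraries. At 2 log2 units the shares were 1.68%, 0.566% and 0.172%. Among the 8574 models with a mean of at least 10 CPM, 49 differed by at least 4-fold between the spruce libraries, 23 of them higher in library 1 and 26 higher in library 2, and 1 of the 49 was called between substrates. Between the straw libraries 17 did so, every one of the 17 higher in library 2, and 4 of these were called. Over all models tested 12.7% were called. A wide gap between libraries of a group enters the spread in the test, so the calls among these models were partly set by their choice.

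**Figure D1:**
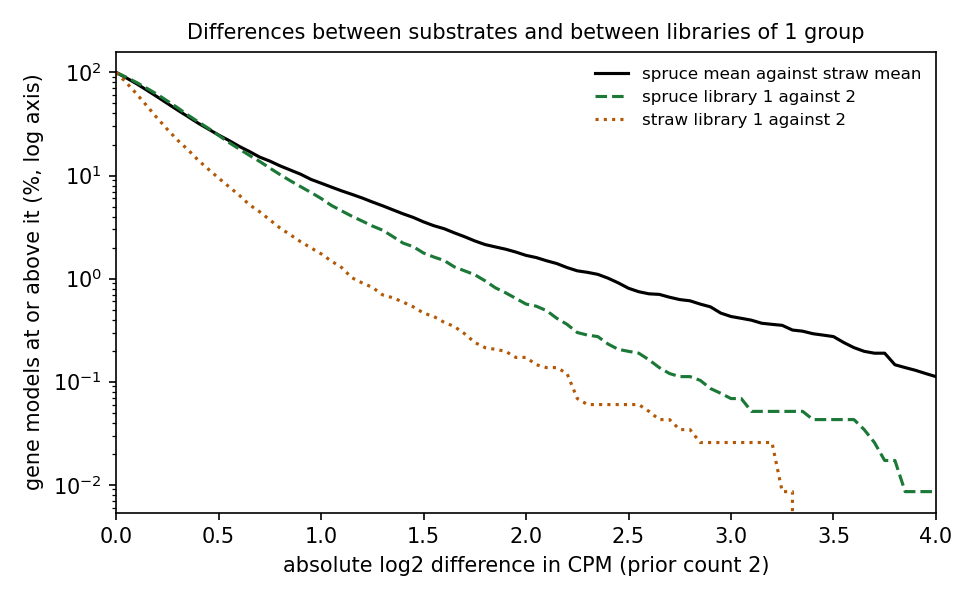
Share of the 11658 tested gene models (log axis, %) whose absolute log2 difference in CPM reaches the value on the x axis, for the spruce mean against the straw mean (solid) and for the 2 libraries of each group (dashed and dotted). The spruce pair lies near the substrate curve at small differences and below it at large ones (5.99% against 8.43% at 1 log2 unit, 0.566% against 1.68% at 2), and the straw pair lies below both. The substrate curve compares means of 2 libraries, which vary less than the single libraries of the other curves.

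Between substrates, 1475 of 11658 models (12.7%) were called in edgeR's quasi-likelihood test at an adjusted p below 0.05. Of these, 763 were higher on spruce (6.54% of models tested) and 712 were lower (6.11%), whereas unscaled library totals gave 619 higher and 835 lower. The smallest called difference was 0.37 log2 units, and the median over all models tested was 0.0015. All 1475 had libraries that did not overlap between substrates, which held for 54.5% of all models tested. Setting each spruce library against each straw library gives 4 library pairs. In 445 called models, 206 higher and 239 lower, the difference was at least 2-fold in the same direction in all 4 pairs, which is 27.0% of the models called higher and 33.6% of those called lower. Another 21 models met this condition without being called (15 higher, 6 lower on spruce), with adjusted p-values from 0.0511 to 0.188. Their standard errors had a median of 0.69 log2 units, against 0.25 in the 445. The number of calls depended on the libraries in the fit. A fit of the 4 libraries at 15 °C alone called 535 (265 higher, 270 lower). Leaving out 1 library at 25 °C gave 1080 to 1192 calls. The number also fell when either straw library at 15 °C was left out, which leaves 1 library in that group. It rose when either spruce library at 15 °C was left out, which likewise leaves 1 library in its group.

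Most differences were moderate. Under 2-fold, 421 models were called higher and 310 lower, which is 6.87% of the 10641 models in that range. From 2-fold to 4-fold, 252 were called higher and 308 lower (69.2% of 809). From 4-fold to 8-fold, 70 were called higher and 63 lower (85.8% of 155). At 8-fold and above, 20 were called higher and 31 lower, and 2 models in that range were not called. In all, 24 models differed by at least 4-fold without a call, 20 of them higher on spruce. In 20 of these 24 at least 1 pair of libraries of the same substrate differed by 2-fold or more.

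The models with the largest differences covered a wide range of levels. The 20 models at least 8-fold higher on spruce had a median level of 25.6 CPM on straw and 245.2 CPM on spruce. Over single libraries they spanned 0.349 to 209 CPM on straw and 7.83 to 1474 CPM on spruce, and 15 of the 20 reached a mean of 100 CPM on spruce, while 6 averaged under 10 CPM on straw. The 31 models at least 8-fold lower on spruce had a median of 206.0 CPM on straw and 5.05 CPM on spruce. They spanned 1.59 to 1689 CPM in the straw libraries and 0.114 to 186 CPM in the spruce libraries, and 17 of the 31 averaged under 10 CPM on spruce. The 51 models lay on 43 scaffolds, and each of the 51 differed by at least 2-fold in all 4 library pairs.

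**Figure D2:**
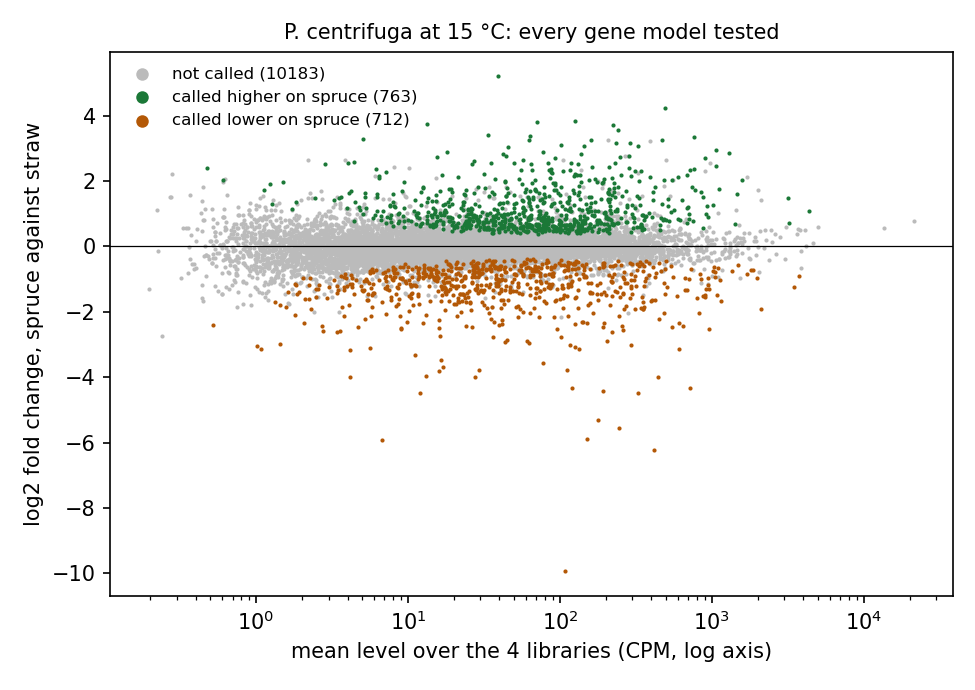
Log2 fold change of spruce against straw (y axis) by mean level over the 4 libraries (CPM, log x axis), 1 point per gene model, with the 763 called higher in green, the 712 called lower in orange and the 10183 not called in grey. The lowest point, at -9.93, is the first model of scaffold 1388, and the highest, at 5.21, is model 3 of scaffold 2906.

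The highest fold change towards spruce was that of jgi|Phlcen1|9885|scaffold_2906.3, model 3 of scaffold 2906. It had 21 and 23 counts in the straw libraries and 873 and 588 in the spruce libraries. In CPM these were 1.83 and 2.28 on straw against 85.4 and 66.8 on spruce, so that even the lower spruce library lay far above both straw libraries. The log2 fold change was 5.21 ± 0.28 (SE, n = 2 per group; edgeR adjusted p = 0.000271), with 4.76 to 5.41 over the 4 library pairs. The models on either side behaved differently. Model 2 stood at 225 and 267 CPM on straw and 242 and 267 CPM on spruce, and model 4 at 41.8 and 36.2 against 48.5 and 42.6 CPM, with adjusted p-values of 0.858 and 0.285 in the edgeR test. It was the 1 called model among the 10 on its scaffold, beside 12.7% called over all models tested.

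The model with the largest gain in CPM on spruce was jgi|Phlcen1|10366|scaffold_2994.4, model 4 of scaffold 2994. Its straw libraries held 29325 and 30167 counts, or 2562 and 2996 CPM, and its spruce libraries 64638 and 47907 counts, or 6322 and 5439 CPM. The substrates did not overlap, and the mean rose from 2779 ± 307 on straw to 5880.3 ± 625 CPM on spruce (SD, n = 2). This is a log2 fold change of 1.08 ± 0.17 (edgeR adjusted p = 0.00752). It moved from place 17 among the models with the most counts on straw to place 4 on spruce. It was no longer called when only the 4 libraries at 15 °C were fitted (adjusted p = 0.0584) or when straw library 1 was left out (adjusted p = 0.092). Neither the model before it (8.48 CPM on straw, 11.4 on spruce) nor the model after it (41.6 and 38.7 CPM) was called. Model 4 was the 1 called model among the 16 on its scaffold, beside 12.7% called over all models tested.

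The highest fold change towards straw was that of jgi|Phlcen1|1822|scaffold_1388.1, the first model of scaffold 1388. It had 2393 and 2239 counts on straw and 3 and 1 on spruce, which is 209 and 222 CPM against 0.293 and 0.114 CPM. The straw libraries differed little from each other, and both spruce libraries were close to no signal. The fitted log2 fold change was -9.93 (edgeR adjusted p = 2.78e-05). Its standard error obtained from F, 0.31, is too small for a model with 3 and 1 counts on spruce. With so few counts on spruce the size is imprecise: the scaled ratio of the 4632 counts on straw to the 4 on spruce was 1024, with an exact 95% interval of 400 to 3760 that covers counting error only. The next model on the scaffold had 29 and 24 counts on straw and 25 and 13 on spruce, and the one after it stood at 48.2 and 49.1 against 50.2 and 52.6 CPM, and neither was called. Of the 23 models on the scaffold, 5 were called, beside 12.7% over all models tested. The call held in all 16 alternative settings tried, as did that of model 3 on scaffold 2906.

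The model with the largest drop in CPM on spruce was jgi|Phlcen1|245|scaffold_1034.10, model 10 of scaffold 1034. It held 60462 and 44535 counts on straw (5282 and 4423 CPM) and 17084 and 21324 on spruce (1671 and 2421 CPM), with no overlap between substrates. The log2 fold change was -1.25 ± 0.21 (edgeR adjusted p = 0.00962), and its place among the models with the most counts went from 4 on straw to 35 on spruce. Fitting only the 4 libraries at 15 °C ended the call (adjusted p = 0.0736), as did leaving out straw library 1 (adjusted p = 0.0833). Here the preceding model moved as well. Model 9 stood at 1046 and 874 CPM on straw and 294 and 462 CPM on spruce, a log2 fold change of -1.35 ± 0.22 (adjusted p = 0.00869), so in both models straw library 1 was the highest and spruce library 1 the lowest. Model 11, on the other side, stood at 122 and 122 CPM on straw and 141 and 140 CPM on spruce (adjusted p = 0.229). Of the 38 models on the scaffold, 6 were called, beside 12.7% over all models tested.

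**Figure D3:**
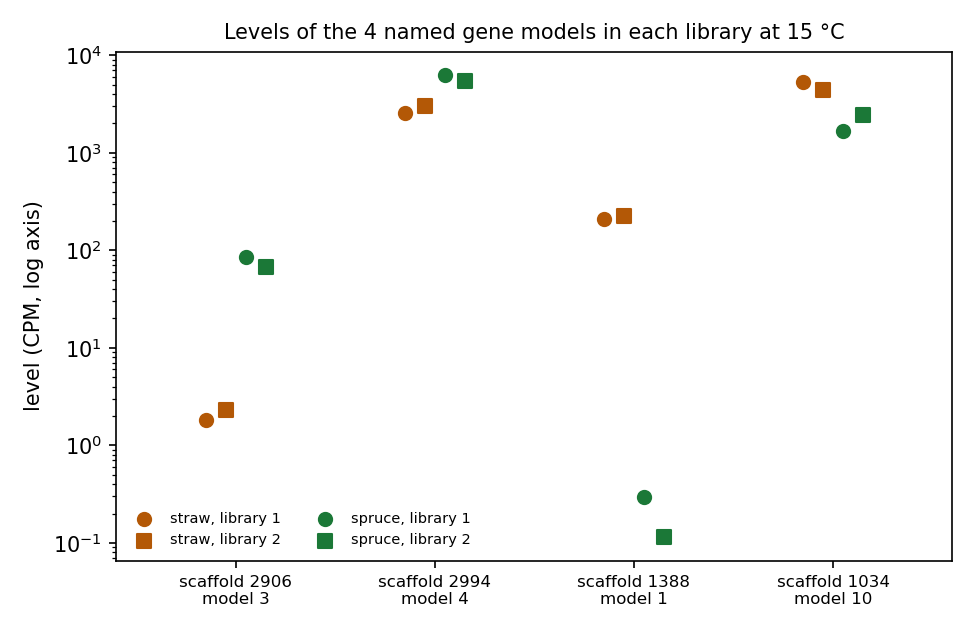
CPM (log axis) of the 4 named gene models in each library at 15 °C, straw in orange and spruce in green, circles for library 1 and squares for library 2. The libraries of a substrate lie close together relative to the gap between substrates in the models of scaffolds 2906 and 1388, while the models of scaffolds 2994 and 1034 lie at 1671 CPM or more in every library and differ by 1.08 and -1.25 log2 units.

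A further model was near absent on one substrate, with a mean under 1 CPM on spruce and a mean of at least 10 CPM on straw. It was singled out after its values were seen and is model 11 of scaffold 2449. It had 192 and 99 counts on straw and 3 and 1 on spruce, or 16.8 and 9.83 CPM (mean 13.3) against 0.293 and 0.114 CPM (log2 fold change -5.92 ± 0.71, edgeR adjusted p = 0.00339). The scaled ratio was 64, with an exact 95% counting interval of 25 to 238. With the first model of scaffold 1388 it made up the 2 called models that met this condition, and both were low on spruce. The reverse pattern, near absence on straw, was met by no called model.

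The called models made up a similar share of the counts in each library, and the makeup of that share turned over between substrates. Models called higher on spruce took 6.10% and 6.77% of the counts of the straw libraries and 14.6% and 14.1% of those of the spruce libraries. Models called lower took 14.1% and 13.2% on straw and 5.55% and 5.69% on spruce. The 10183 models not called held between 79.8% and 80.2% in every library. These shares describe the calls and do not test them, since the same libraries made the calls. A small share of the called models held much of the summed difference. The 763 models called higher gained 88670.5 CPM in sum, of which the first 10 accounted for 21.1%, the first 100 for 63.9%, and 54 models for 50% of it. The 712 models called lower lost 79006 CPM in sum, of which the first 10 accounted for 19.8%, the first 100 for 70.7%, and 46 models for 50% of it.

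Of the 100 models with the most counts on each substrate, 69 were the same. The 100 models took 22.8% to 23.4% of the CPM in the spruce libraries and 21.2% to 21.6% in the straw libraries. Of the 31 found only in the spruce list, 18 were called higher on spruce, and the others were not called. Of the 31 found only in the straw list, 19 were called lower, and the others were not called. In the median, a model found only in the spruce list stood at place 238 on straw, and the farthest at place 1627. A model found only in the straw list stood in the median at place 190 on spruce, and the farthest at place 3304. Among the 69 shared models 10 were called, beside 12.7% of all models tested and 24.1% of those above 1000 CPM. Models found in 1 list only were chosen by their levels in the libraries that made the calls. The direction of their calls was thus largely set by that choice and tests nothing. With lists of 50 and 500 models, 34 and 375 were shared.

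The share of models called rose with the level, and the balance of directions differed between levels. Under a mean of 1 CPM, 3 of 246 models were called (1.22%), and from 1 to 10 CPM 187 of 2838 (6.59%), with 60 higher and 127 lower. From 10 to 100 CPM 794 of 6238 were called (12.7%), with 421 higher and 373 lower. From 100 to 1000 CPM 463 of 2220 were called (20.9%), with 269 higher and 194 lower. Above 1000 CPM 28 of 116 were called (24.1%), with 11 higher and 17 lower. The standard error fell with the level as far as 1000 CPM, with medians of 0.56, 0.27, 0.16 and 0.15 log2 units in the 4 lower classes, and was 0.20 in the highest. Whether the balance of directions differed between classes was not tested, and from 10 to 100 CPM unscaled library totals gave 325 higher and 439 lower.

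**Figure D4:**
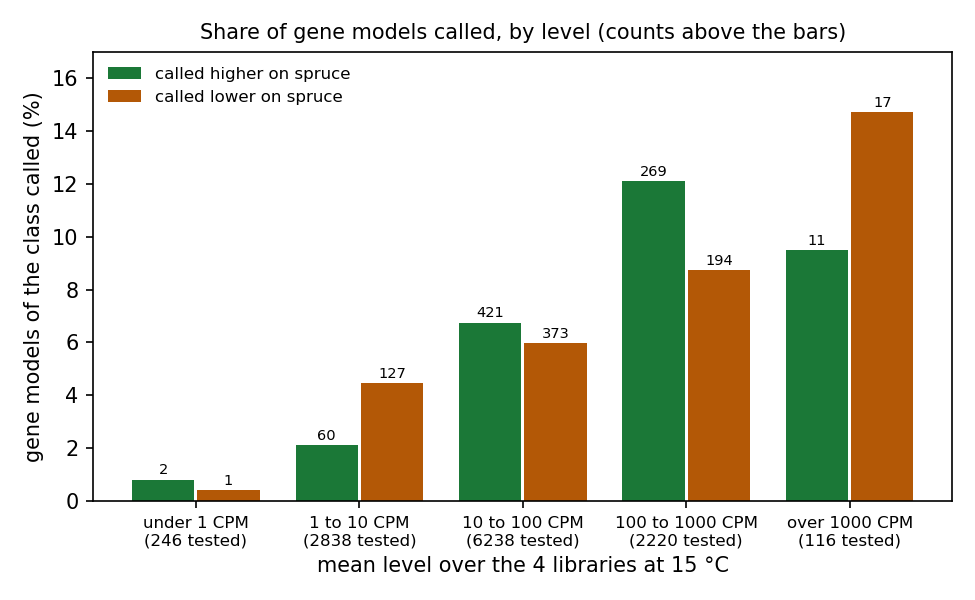
Share of tested gene models called higher (green) or lower (orange) on spruce, in %, by class of mean CPM over the 4 libraries, with the number called above each bar and the number tested under each class. Lower calls outnumber higher calls from 1 to 10 CPM (127 against 60) and above 1000 CPM (17 against 11), and higher calls outnumber lower ones from 100 to 1000 CPM (269 against 194) and, with TMM scaling but not with library totals alone (325 against 439), from 10 to 100 CPM.

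Neighbours of called models were called in the same direction more often than all models tested, which is given here as counts with no test. The 13785 models lie on 1994 scaffolds, 767 of which carry 1 model and the largest 192. Among 10275 pairs of consecutive models with both tested, 285 pairs had both called, 241 of them in the same direction (124 higher, 117 lower) and 44 in opposite directions. Neighbours of called models were counted once per pair, so a model next to 2 called models counts for each of them. Of the neighbours of models called higher, 17.9% (248 of 1389) were called higher and 3.17% lower, against 6.54% and 6.11% of all models. Of the neighbours of models called lower, 19.1% (234 of 1228) were called lower and 3.58% higher. At a distance of 2 models the shares called in the same direction were 9.03% and 12.5%. At 3 models they were 7.81% and 10.2%, and at 5 models 7.70% and 6.61%. At 10 models they were 6.69% and 6.77%. The share of all tested models with a neighbour called in a given direction was not computed, so the next counts have no base rate. In all, 426 called models (28.9% of those called) had a neighbour called in the same direction, as did 20 of the 51 models that differed by at least 8-fold. There were 74 such pairs in a fit of the 4 libraries alone, 44 without straw library 1 and 95 without straw library 2, beside 3, 1 and 6 pairs in opposite directions.

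**Figure D5:**
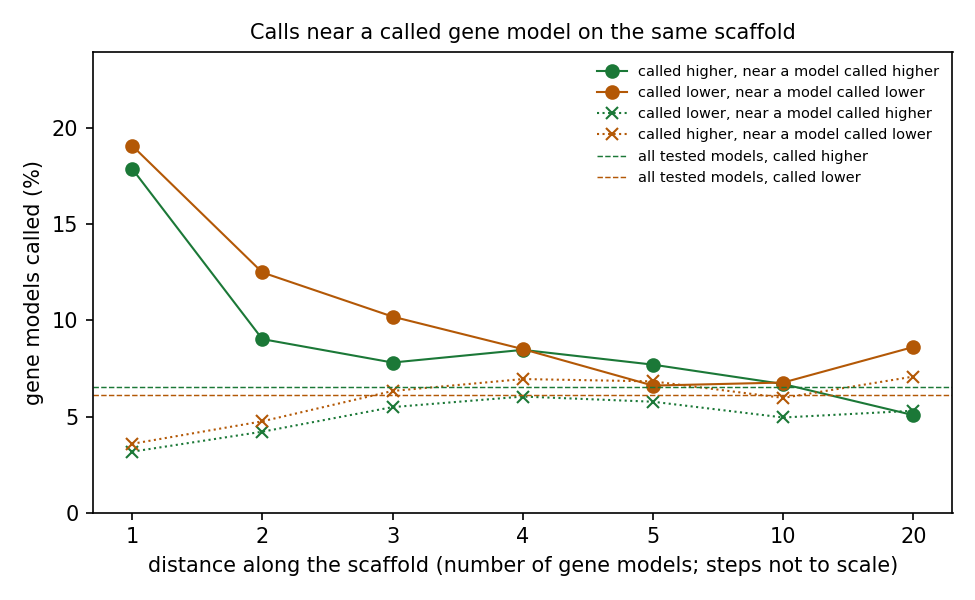
Share of gene models called (%, y axis) by their distance, in gene models along the scaffold, from a model called higher (green) or lower (orange), for calls in the same direction (circles) and the opposite direction (crosses), with the shares over all tested models dashed (6.54% higher, 6.11% lower). Same-direction calls are most frequent at a distance of 1 model (17.9% and 19.1%) and near the overall share from 5 models on, apart from 8.62% called lower at 20 models from a model called lower. A model is counted once for each called model at that distance.

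Neighbouring models were also alike in the difference between libraries of the same substrate. Over the 10275 consecutive pairs, which share libraries and in part local sequence, the substrate log2 fold changes had a Pearson r of 0.24 (Spearman 0.24), given as a description. For the difference between the spruce libraries r was 0.18, and for that between the straw libraries 0.11. At a distance of 2 models the 3 values were 0.09, 0.067 and 0.03, and at 10 models 0.018, 0.02 and 0.0012. Whether counting used the strand is not stated in the labels. How reads of overlapping neighbours were assigned is therefore not known here, and their part in these values was not tested.

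Runs of at least 3 consecutive models called in the same direction numbered 40, of which 20 were higher and 20 lower on spruce. They held 136 models, 9.22% of those called. Over all models tested, 6.54% were called higher and 6.11% lower. The runs were counted only in the fit of all 8 libraries, and no base rate was computed for them. Of the runs, 28 had 3 models, 9 had 4, 2 had 5 and 1 had 6. The 3 longest were singled out after their values were seen. The run of 6 was models 8 to 13 of scaffold 2880, all lower on spruce, with log2 fold changes from -0.94 to -3.02 (edgeR adjusted p at most 0.0389). Summed over its 6 models, the level was 1647 and 1233 CPM in the straw libraries and 372 and 282 CPM in the spruce libraries. The middle of the run held the largest differences: model 10 went from 594 and 448 CPM on straw to 71.5 and 56.6 CPM on spruce, and model 11 from 539 and 347 CPM to 81.6 and 69.7 CPM. Model 8, at the edge, stood at 42.9 and 33.5 against 24.5 and 15.1 CPM, and model 7, just outside the run, at 88.1 and 86.8 against 69.4 and 39.2 CPM (adjusted p = 0.104). Model 13 had no tested model directly after it, so that end of the run has no flanking value.

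Models 16 to 20 of scaffold 1603 were all lower on spruce. Their summed level was 999 and 769 CPM on straw and 319 and 307 CPM on spruce, and single log2 fold changes went from -0.63 to -1.91 (edgeR adjusted p at most 0.017). The borders of this run were sharp. Model 15 stood at 61.8 and 60.6 CPM on straw against 56.8 and 61.3 CPM on spruce (adjusted p = 0.796), and model 21 was called in the other direction, at 27.7 and 23.2 against 38.0 and 37.5 CPM (adjusted p = 0.0311).

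Models 28 to 32 of scaffold 1925 were all higher on spruce. Their summed level was 116 and 186 CPM on straw and 725 and 624 CPM on spruce, and single log2 fold changes went from 0.67 to 2.74 (edgeR adjusted p at most 0.034). Model 32 had the largest difference, at 34.9 and 95.6 CPM on straw against 486 and 383 CPM on spruce, and its straw libraries differed from each other by more than its spruce libraries in relative terms. Model 27, before the run, was called lower on spruce, at 14.2 and 11.8 against 4.11 and 3.18 CPM (adjusted p = 0.004). Model 33, after it, stood at 72.0 and 62.9 against 58.4 and 64.1 CPM (adjusted p = 0.49).

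Calls were found on scaffolds of every size. On scaffolds of 50 or more models 12.6% of 2105 tested models were called, on those of 10 to 49 models 12.9% of 7288, on those of 2 to 9 models 11.9% of 2026, and on those of 1 model 10.5% of 239. Models on small scaffolds passed the filter on low counts less often: 31.2% of the models alone on a scaffold were tested, against 98.0% on scaffolds of 50 or more. Their level was lower as well, with a median of 9.32 CPM for tested models alone on a scaffold against 36.8 CPM on the largest scaffolds.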

How the data were processed

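Messenger RNA of P. centrifuga was sequenced on an Illumina HiSeq platform, per the labels' protocols. The authors deposited raw counts, as whole numbers for each model, in a file per library. Trimmomatic 0.36 and STAR 2.7.10a were used, per the submitters' processing notes. The genome build, annotation version, strand setting and treatment of reads that map to several places were not given in the sources used here. How reads shared by near-identical paralogs or overlapping models were counted is therefore not known here, and their values are uncertain.

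From the counts, low models were removed with filterByExpr, totals were scaled with edgeR's TMM factors, and all 8 P. centrifuga libraries were fitted with 1 mean per group in edgeR 4.0.16 (R 4.3.3), which leaves 4 residual degrees of freedom. Spruce at 15 °C was tested against straw at 15 °C by the quasi-likelihood F test, adjusted by Benjamini-Hochberg over 11658 models and called below 0.05. Standard errors were obtained as |log2 fold change| / √F, which is not reliable where a group holds only a few counts. Means ± SD of CPM are over 2 libraries, and log2 differences between single libraries used a prior count of 2. The fit was tested on simulated data. Alternatives were DESeq2 1.42.0, other scalings, filters and fold thresholds, the replicate number as a block, and leaving out each library.

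In each direction 2 models were named, those with the highest fold change and the largest difference in mean CPM among called models with libraries that did not overlap and a mean of 10 CPM or more on the higher side. The members, lists and rules were chosen with earlier results of these data known. The libraries of the second fungus were not used. Libraries of a group differed by more than counting noise (chi-square / df of 69.4 on spruce and 15.3 on straw), so none was treated as a library deposited again; this does not show that they came from separate cultures.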

Additional observations from a re-analysis of the deposited data

How the results depend on the processing

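Of the 1475 calls, 1385 were also made in the same direction by DESeq2 (1635 called), 1441 with RLE scaling, 1441 without the filter and 1469 with a stricter one. Scaling by library totals alone shifted the median log2 fold change of all models to -0.072 and turned the majority to lower (619 higher, 835 lower). A fit of the 4 libraries at 15 °C alone called 535 models (265 higher, 270 lower, 74 neighbouring pairs in the same direction), and a test against a 1.5-fold change (glmTreat) called 407 (174 higher, 233 lower, 61 pairs). With each of the 8 libraries left out in turn, the calls ranged from 352 (without straw library 1) to 1919 (without spruce library 2), those higher from 117 to 1024, those lower from 235 to 895, and the pairs from 44 to 342. Leaving out a library at 25 °C gave 1080 to 1192 calls, and leaving out spruce library 1 gave 1578. The models of scaffolds 2994 and 1034 lost their calls in 3 of 16 settings each, and no named model changed sign. The count of models at least 8-fold apart stayed between 35 and 73 without 1 library.

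The replicate numbers in the titles were not taken to pair the libraries: the difference of replicate 1 from 2 had an r of -0.029 across genes between spruce and straw at 15 °C, and from -0.32 to 0.26 over the other 5 pairs of groups in the fit. With the replicate block, 1256 models were called (632 higher, 624 lower). With 2 libraries a side, 1 library decides many calls. Levels under 0.341 CPM correspond to 3 counts or fewer in the shallowest library, and differences among such levels were not detectable.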
